A study of Mus musculus with 59 samples.

Results

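Differences among 4 mouse embryonic stem cell lines that all lack Mettl3 were measured here. The lines are named 1d1, 3xU, 1d2 and 2c4d in the sample titles, and each contributed 1 RNA-seq library from cells at 37 °C and 1 from cells held at 42 °C for 1 h, so the 4 lines are 8 of the 59 samples of the series. Their libraries were identified by these labels, and no measured value entered the rule. The series as a whole addresses the microRNA-processing proteins DGCR8, Drosha and Dicer and the RNA methyltransferase METTL3, including under heat stress. All 4 lines come from a 129xC57Bl6 hybrid line and carry Rosa26:BirA, DGCR8 FLAG/Avi and METTL3KO. The comparison cultures, parental_1 and parental_2, carry Rosa26:BirA and DGCR8 FLAG/Avi without METTL3KO, so tagged DGCR8 and BirA are shared by every group and no untagged cells enter. All were grown on gelatin with serum and LIF. The labels do not say whether a line is 1 clone, how the lines are related, or whether they were edited side by side.

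METTL3 is the catalytic subunit of the nuclear complex that places N6-methyladenosine (m6A) on RNA, with METTL14 as its partner, WTAP as the adaptor, and ZC3H13, VIRMA, RBM15 and CBLL1 as further subunits. FTO is a demethylase, and the IGF2BP proteins bind methylated transcripts. Embryonic stem cells without METTL3 are known to keep self-renewing and to leave naive pluripotency poorly. Lines grown apart in culture are known to drift in imprinted genes, in the Y chromosome and in chromosome copy number.

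The sample titles number the libraries, and the numbers fall into 2 runs of 6. The first holds parental_1, 1d1 and 3xU, and the second parental_2, 1d2 and 2c4d; each run is called a library set here, since the labels name no batch. Between lines of different sets, the set and the line cannot be told apart. Total counts ran from 8667588 to 13579892 in the 8 knockout libraries and from 7102867 to 13257666 in the 4 parental libraries. The 37 °C library of 1d1 stood apart in 2 ways: mt-Rnr2 took 8.30% of its counts, against 11.4% to 17.2% in the other 11 libraries, and Rmrp and Rn7sk together took 0.320%, as in the 42 °C library of parental_1, against 0.0852% to 0.154% elsewhere. Levels are in CPM, the count of a gene relative to the TMM-scaled total count of its library, which removes depth but not gene length, so levels are compared between libraries and never between genes. Unless stated otherwise, a pair of values gives the 37 °C library and then the 42 °C library of a line. A log2 difference is the line against the mean of the other 3 lines, with its standard error, and a gene is called when its Benjamini-Hochberg adjusted p from edgeR's quasi-likelihood test is under 0.05 over all 15092 genes tested. Each line has 2 libraries, 1 at each temperature, and temperature is a term of the fit. The p-values therefore set the lines against how unlike their changes with temperature were. That spread may hold technical variation as well as heat responses particular to a line.

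The knocked-out gene was checked first. Mettl3, at chr14:52294841-52308741 (GRCm38), was counted at 40.8 and 29.5 CPM in 1d1, 28.6 and 29.8 in 3xU, 21.7 and 20.5 in 1d2, and 29.2 and 35.5 in 2c4d. The 4 parental libraries stood between 60.4 and 71.5 CPM, above all 8 knockout libraries. The counts cover the whole gene, so they do not show which exons were lost. Among the lines, 1d2 was the lowest, with a log2 difference of -0.61 (adjusted p = 0.0137), and the line term passed as a whole (adjusted p = 0.0213). Without the 37 °C or the 42 °C library of 1d2, Mettl3 no longer passed (adjusted p = 0.140 and 0.158), so this call rests on that line.

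A large share of the transcriptome differed among the lines. Of 15092 genes tested, 9039 (59.9%) differed in at least 1 line. Against the other 3 lines, 1d1 differed in 6504 genes (43.1%), 3459 higher (22.9%) and 3045 lower (20.2%). In 3xU 4399 differed (29.1%), 2501 higher (16.6%) and 1898 lower (12.6%). In 1d2 4103 differed (27.2%), 2074 higher (13.7%) and 2029 lower (13.4%). In 2c4d 4541 differed (30.1%), 2364 higher (15.7%) and 2177 lower (14.4%). With the difference between parental_2 and parental_1 subtracted from every line of the second set, an alternative added after the data were seen, the counts were 4126 for 1d1, 911 for 3xU, 1566 for 1d2 and 1149 for 2c4d. Leaving out either library of 3xU took its count to 957 or 1146. Leaving out either library of 1d2 took its count to 824 or 1098, and leaving out the 37 °C library of 3xU took that of 1d2 to 2631. Without its 42 °C library, 2c4d had 2437.

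A stricter count asked that both libraries of a line lie beyond all 6 libraries of the other lines. In 1d1, 2000 genes (13.3%) lay above and 1915 (12.7%) below in this way. In 3xU the numbers were 1262 (8.36%) and 1067 (7.07%), in 1d2 1132 (7.50%) and 908 (6.02%), and in 2c4d 1219 (8.08%) and 1035 (6.86%). Many of these also passed the test against the other line of the same library set: 1448 and 1337 in 1d1, 849 and 780 in 3xU, 571 and 501 in 1d2, and 583 and 510 in 2c4d. In each line, then, at least 501 genes in each direction stood apart from every other knockout library and differed within the set.

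The lines were compared in pairs as well. Within the sets, 1d1 and 3xU differed in 4874 genes (32.3%), 2417 (16.0%) higher and 2457 (16.3%) lower in 1d1, and 1d2 and 2c4d in 2771 (18.4%), 1307 (8.66%) higher and 1464 (9.70%) lower in 1d2. Across the sets, 1d1 and 1d2 differed in 6589 genes (43.7%), 3450 (22.9%) higher and 3139 (20.8%) lower in 1d1. The counts were, for 1d1 and 2c4d, 5689 (37.7%), for 3xU and 2c4d, 5430 (36.0%), and for 3xU and 1d2, 3410 (22.6%). The root mean square log2 difference over 11345 genes with a mean of at least 2 on the log2 CPM scale was largest for 1d1 and 1d2, at 0.790 at 37 °C and 0.726 at 42 °C. It was 0.681 and 0.640 for 1d1 and 3xU, 0.549 and 0.509 for 3xU and 1d2, and 0.491 and 0.528 for 1d2 and 2c4d. The same quantity between the 2 temperatures within a line was 0.441 in 1d1, 0.380 in 3xU, 0.297 in 1d2 and 0.369 in 2c4d. For each of the 6 pairs, the lines were therefore farther apart than the 2 temperatures of either line. Leaving out single libraries moved several of these counts: 1d1 against 3xU fell to 2181 or 2228 without a 3xU library, 1d1 against 1d2 to 3286 or 3868 without a 1d2 library, and 3xU against 2c4d to 2027 or 2456 without a 3xU library. For 3xU against 1d2 the counts were 676 and 690 without the 37 °C library of 3xU or of 1d2 and 888 and 948 without the 42 °C library, and for 1d2 against 2c4d 823 and 779 without a 1d2 library and 1601 without the 42 °C library of 2c4d.

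The genes that set 1d1 farthest from the other lines were imprinted noncoding RNAs and Y-linked genes. An imprinted gene is expressed from the copy of 1 parent only. H19 and Meg3 are maternally expressed long noncoding RNAs, and each is counted beside microRNA hairpins that lie within it or beside it, so the mature microRNA sequences are given first. They are RefSeq sequences (GRCm38.p6), with the seed, bases 2 to 8, in capitals.
mmu-miR-675-5p: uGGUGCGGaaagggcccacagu
mmu-miR-675-3p: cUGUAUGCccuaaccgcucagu
mmu-miR-433-5p: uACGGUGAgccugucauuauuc
mmu-miR-433-3p: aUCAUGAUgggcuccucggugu
mmu-miR-3071-5p: aCUCAUUUgagacgaugaugga
mmu-miR-3071-3p: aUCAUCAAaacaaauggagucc
The 6 seeds are all different. The Mir675 hairpin, at chr7:142577064-142577147, lies inside H19. Mir433, at chr12:109591715-109591838, and Mir3071, at chr12:109595318-109595397, lie between Meg3 and Rian.

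H19, at chr7:142575530-142578146, stood at 267 and 233 CPM in 1d1, 0.209 and 0.202 in 3xU, 1.47 and 1.37 in 1d2, and 3.01 and 2.94 in 2c4d. The parental libraries lay between, at 8.14 and 12.0 CPM in parental_1 and 24.3 and 30.6 in parental_2. The level in 1d1 was 152 times that of the other 3 lines pooled (95% interval 126 to 185, counting error only), a log2 difference of 7.99 ± 0.12 (SE, adjusted p = 4.48e-11). H19 was thus above both parental cultures in 1d1 and below them in the other lines.

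Meg3, at chr12:109540996-109571729, and its neighbours Rian, at chr12:109603945-109661716, and Mirg, at chr12:109734981-109749458, are maternally expressed RNAs of 1 imprinted domain. Meg3 stood at 159 and 166 CPM in 1d1, 0.418 and 0.101 in 3xU, 0.693 and 0.0858 in 1d2, and 0.151 and 0.173 in 2c4d. In parental_1 it stood at 52.1 and 43.1 CPM and in parental_2 at 12.6 and 11.1. The 1d1 level was 610 times that of the other lines pooled (interval 386 to 1031), with a log2 difference of 9.26 ± 0.22 (adjusted p = 1.85e-09). Only 1d1, among the knockout lines, held Meg3 above 1 CPM.

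Rian was also highest in 1d1, at 433 and 583 CPM in 1d1, 0.314 and 0.810 in 3xU, 1.65 and 0.858 in 1d2, 3.09 and 3.11 in 2c4d, and 92.5 to 150 CPM in the parental libraries. Its ratio was 293 (interval 245 to 355). Mirg, which hosts a cluster of microRNAs, stood at 72.5 and 69.0 CPM in 1d1, at 0 in both 3xU libraries and at 0.0858 to 0.346 CPM in 1d2 and 2c4d. It was at least 458-fold higher in 1d1 than in 3xU, against a floor of 3 counts over the 2 libraries of 3xU, and 530 times the other lines pooled (interval 278 to 1162).

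The hairpins were counted in the same libraries, at low numbers. Mir675 gave 89 and 13 counts in 1d1, Mir433 11 and 19, and Mir3071 15 and 10, while the 6 libraries of the other lines gave 0 or 1 count each. These are counts of a total RNA library over the hairpin and do not measure mature microRNA. Mir3071 overlaps Mir136 on the opposite strand by 62 bases, and the strand used in counting is not given in the sources used here, so reads of the 2 cannot be told apart.

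The start of Meg3 is shown because the gene was on in 1 knockout line only. The RefSeq promoter window is printed here, 250 bases before to 50 after the start, at chr12:109540746-109541045 on the plus strand of GRCm38.p6. The capitals mark GCGGCA, the reverse complement of TGCCGC, the hexamer known as the core of the binding motif of ZFP57, a zinc finger protein that guards imprinted methylation.
Meg3 promoter: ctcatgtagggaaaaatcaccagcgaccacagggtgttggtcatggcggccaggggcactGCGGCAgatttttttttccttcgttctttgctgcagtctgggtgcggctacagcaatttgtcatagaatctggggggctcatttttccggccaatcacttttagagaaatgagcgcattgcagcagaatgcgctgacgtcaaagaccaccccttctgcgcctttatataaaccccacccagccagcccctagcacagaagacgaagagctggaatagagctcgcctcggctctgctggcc
Over both strands the window holds the hexamer once, and it has 13 CpG dinucleotides, against a median of 7 over 32851 RefSeq promoter windows of the same length. The hexamer was found in 11.6% of all windows. Counted by gene, it was in a window of 13.1% of all genes with a window, and of 12 of the 30 imprinted genes of the list below that have one. A match of letters is a description of the window and no measure of binding or methylation, neither of which was measured here.

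The Y-linked genes separated the lines in the same way. Ddx3y, a Y-linked RNA helicase gene at chrY:1260715-1286628, stood at 114 and 144 CPM in 1d1, 0.105 and 0.101 in 3xU, 0.780 and 0.257 in 1d2, and 0.904 and 1.47 in 2c4d. The parental libraries lay at 28.9 to 56.6 CPM, below both libraries of 1d1 and above those of the other lines. The 1d1 level was 202 times that of the others pooled (interval 150 to 280), a log2 difference of 8.26 ± 0.19 (adjusted p = 1.60e-09). Eif2s3y, which encodes a Y-linked subunit of the translation initiation factor eIF2, stood at 51.4 and 55.6 CPM in 1d1 and between 0.314 and 1.38 CPM in the other 6 libraries, a ratio of 63.4 (interval 48.5 to 84.3).

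Uty and Kdm5d, Y-linked relatives of histone demethylases, completed the 4 Y-linked genes tested, and all 4 were called higher in 1d1. Uty stood at 38.9 and 46.7 CPM in 1d1, at 0 in both 3xU libraries, at 0.0867 and 0 in 1d2, and at 1.51 and 1.04 in 2c4d. It was at least 278-fold higher in 1d1 than in 3xU, by the same floor. Kdm5d stood at 10.8 and 11.1 CPM in 1d1, at or below 0.173 in the other lines, and at 0.136 to 0.680 CPM in the parental libraries. In a culture, fewer cells of a kind and less RNA per cell cannot be told apart, so low Y-linked counts in 3xU, 1d2 and 2c4d do not say what share of cells expressed these genes. X-linked Eif2s3x, the counterpart of Eif2s3y, stood at 8.64 and 24.0 CPM in 1d1, 16.6 and 29.2 in 3xU, 72.3 and 65.0 in 1d2, and 73.7 and 42.5 in 2c4d. It split the lines by library set, as it did parental_1 (40.9 and 16.2) and parental_2 (77.9 and 67.0).

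**Figure D1:**
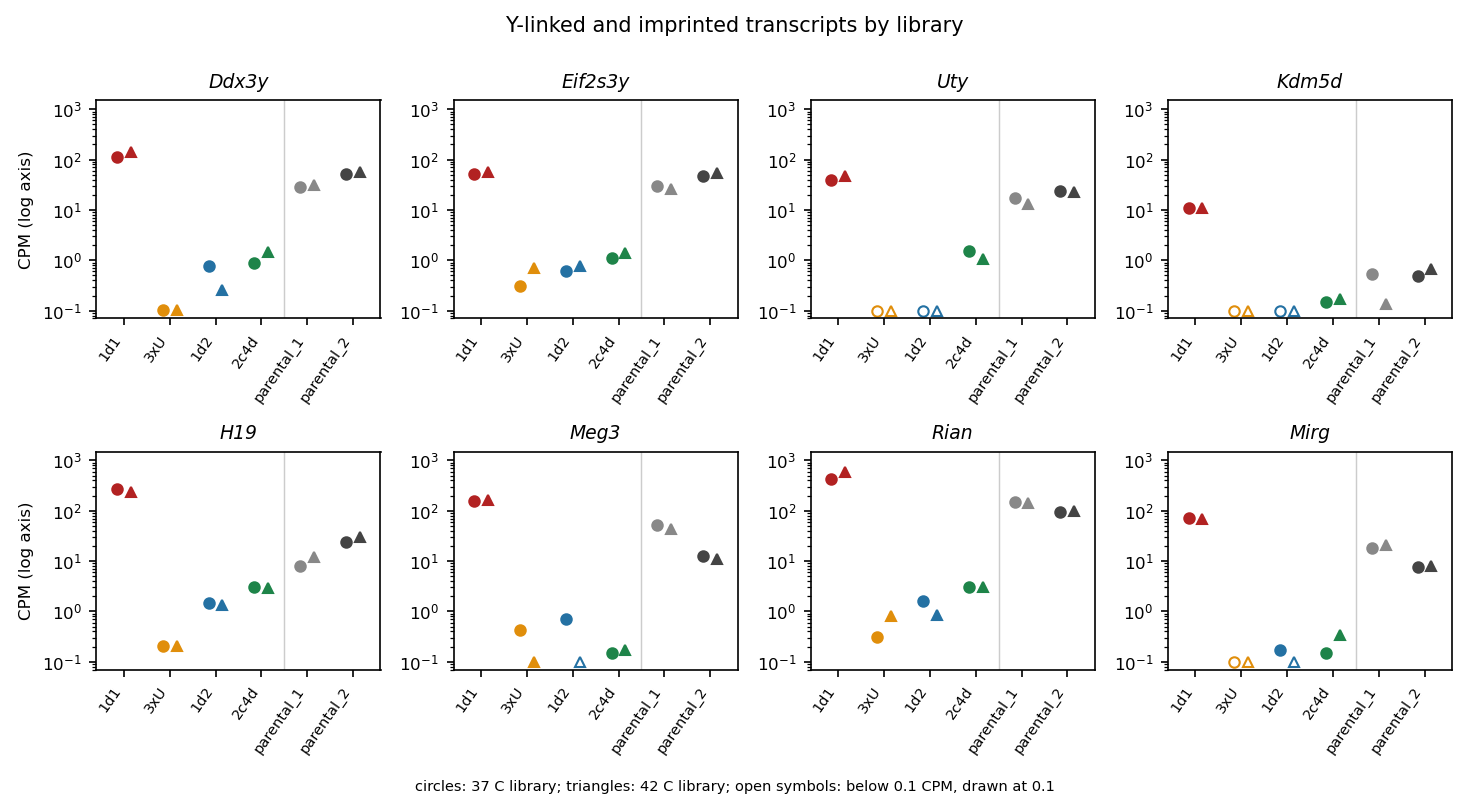
Levels of 4 Y-linked genes (upper row) and 4 imprinted transcripts (lower row) in each library, in TMM-scaled CPM on a log axis, with circles for 37 °C, triangles for 42 °C and open symbols for values below 0.1 CPM, drawn at 0.1; columns are the 4 knockout lines and, right of the grey line, the 2 parental cultures. In all 8 panels both 1d1 points lie above every point of 3xU, 1d2 and 2c4d, and Uty is at 0 in both 3xU libraries.

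Of the 32 imprinted genes tested, from a list of 38, 29 (90.6%) differed in at least 1 line, against 59.9% of all genes. In 1d1, 17 were higher and 6 lower, with a median log2 difference of 0.71, against 22.9% and 20.2% of all genes and a median of 0.02. The shares of all genes given above for each line are likewise the background for the counts that follow. In 3xU 7 were higher and 11 lower (median -0.30), in 1d2 4 and 12 (median -0.36), and in 2c4d 7 and 9 (median -0.26). The list did not move as a block in any line. Igf2, the growth factor gene next to H19 that is expressed from the paternal copy, stood at 42.8 and 40.1 CPM in 2c4d, and between 5.75 and 7.99 CPM in the other 6 knockout libraries, 6.08 times their pooled level (interval 5.42 to 6.82). The parental cultures held 1.94 to 2.38 CPM, so all 4 knockout lines lay above them.

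Maternally expressed Cdkn1c, a cyclin-dependent kinase inhibitor, stood at 6.85 and 7.28 CPM in 1d1 and 11.2 and 15.7 in 2c4d, against 47.2 and 50.5 in 3xU and 65.6 and 63.5 in 1d2. Grb10, which encodes an adaptor that restrains insulin signalling, stood at 11.1 and 12.9 CPM in 1d1 and between 57.3 and 82.9 in the other lines, a log2 difference of -2.51. Cdkn1c therefore split the lines as pairs that cross the library sets, while Grb10 marked 1d1 alone. Zdbf2 and Peg3, both paternally expressed, were higher in the first set: Zdbf2 stood at 300 and 463 CPM in 1d1 and 270 and 352 in 3xU against 63.3 to 77.1 in 1d2 and 2c4d, and Peg3 at 112 and 140, 71.5 and 70.4 against 30.2 to 47.1.

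Beyond these, 1d1 had low levels of many genes with broad roles. Tgfbi, an extracellular matrix protein induced by TGF-β, stood at 2.95 and 3.07 CPM in 1d1, 30.1 and 31.4 in 3xU, 61.4 and 65.0 in 1d2, and 24.0 and 26.0 in 2c4d, a log2 difference of -3.60 ± 0.15 (adjusted p = 2.28e-07). Its parental level was 9.91 to 13.9 CPM, above 1d1 and below the 3 other lines. Kif1a, a kinesin motor of neurons, stood at 3.06 and 2.56 CPM in 1d1 and at 44.0 and 37.3 in 3xU, with 16.7 to 19.7 in the second set. Ephx2, an epoxide hydrolase, stood at 5.48 and 4.92 CPM in 1d1 and at 30.7 to 55.9 in the other lines. Pgm1, a phosphoglucomutase of glycogen metabolism, stood at 9.70 and 7.99 CPM in 1d1 and at 37.2 to 96.5 elsewhere, with 32.1 to 33.2 in the parental libraries.

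Irak3, an inhibitor of interleukin-1 receptor signalling, was also low in 1d1, at 3.90 and 1.84 CPM, and next lowest in 2c4d at 7.01 and 5.62, against 30.0 to 41.1 in 3xU and 1d2. Foxa2, a forkhead factor of endoderm, stood at 0.738 and 0.820 CPM in 1d1 and 3.60 to 9.83 elsewhere. The corepressor gene Skor1, Rhobtb1, the cytochrome P450 gene Cyp2b23 and the matrix protein gene Sned1 completed the 10 lowest genes, with log2 differences of -3.90, -3.34, -3.20 and -2.97. Each of these 10 genes stood lower in both 1d1 libraries than in all 6 others.

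On the high side of 1d1, Tsix, the antisense RNA of Xist, stood at 34.8 and 26.6 CPM, against 15.7 and 8.30 in 3xU and 1.21 to 3.21 in 1d2 and 2c4d. Without stated strand, reads of Tsix and Xist cannot be told apart. Pld1, a phospholipase, stood at 17.9 and 16.4 CPM in 1d1, 6.48 and 4.24 in 2c4d, and 1.11 to 2.09 in 3xU and 1d2. Nrxn3, a synaptic adhesion gene, stood at 25.5 and 14.2 CPM in 1d1 and 0.301 to 11.8 in the others, but at 65.1 in the 42 °C library of parental_1 and 0.680 to 1.75 in the other parental libraries. Its call in 1d1 was lost once the parental set difference was subtracted.

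In 3xU, Sned1 and Enpp2 were among the leading genes on the high side. Enpp2, which encodes the lysophospholipase autotaxin, stood at 30.1 and 28.4 CPM in 3xU, 2.74 and 2.25 in 1d1, 5.46 and 4.12 in 1d2, and 6.10 and 6.14 in 2c4d. The parental libraries held 0.164 to 0.760 CPM, below all 8 knockout libraries. The log2 difference was 2.82 ± 0.13 (adjusted p = 3.60e-06). Sned1 stood at 24.4 and 14.0 CPM in 3xU, 10.1 and 5.75 in 1d2, and 0.615 to 1.66 in 1d1 and 2c4d, a log2 difference of 3.30. X-linked Pim2, a survival kinase, stood at 37.0 and 41.6 CPM in 3xU and 4.74 to 11.9 in the others.

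Kis2, Shisa6, Skor1, Cyp2b23, the microRNA host transcript Mir124a-1hg and the zinc finger gene Bcl11a also led in 3xU, with log2 differences from 2.33 to 2.93. Of these, Kis2, Shisa6, Mir124a-1hg and Bcl11a lost their call with the parental set difference subtracted. Calcoco2, an autophagy receptor, was the leading low gene that other lines expressed strongly, at 18.8 and 18.4 CPM in 3xU against 162 and 161 in 1d1, 77.9 and 76.7 in 1d2, and 65.5 and 74.6 in 2c4d (log2 difference -2.35 ± 0.12, adjusted p = 3.60e-06). Parental_1 stood at 30.8 and 33.4 CPM and parental_2 at 75.9 and 88.4. Mirg, H19, Ddx3y and Rian were also among the 10 lowest of 3xU, with Cpn1, Fam169b, the fructose transporter gene Slc2a5, Arl14epl and the cardiac myosin gene Myh6, which all stood at or below 1.99 CPM in 3xU. Mirg, H19, Ddx3y and Rian were low in 1d2 and 2c4d as well, so their contrast in 3xU rests mostly on the high level in 1d1. Between 3xU and 1d2, Mirg and Ddx3y were not called (adjusted p = 0.147 and 0.0914). Between 3xU and 2c4d they were (adjusted p = 0.0354 and 0.00512).

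In 1d2, Islr2, a leucine-rich repeat protein of neurons, stood at 31.2 and 30.0 CPM, against 8.37 and 6.68 in 3xU, 2.85 and 1.43 in 1d1, and 0.527 and 1.12 in 2c4d. The parental libraries stood at 21.2 to 25.1 CPM, so 1d2 was the closest to them. Stra8, a gene of entry into meiosis, stood at 39.6 and 47.0 CPM in 1d2, 15.7 and 17.6 in 2c4d, and 4.66 to 6.64 in 1d1 and 3xU, a log2 difference of 2.43 ± 0.13 (adjusted p = 4.98e-06). Ptges, a prostaglandin synthase, stood at 44.0 and 38.9 CPM in 1d2 and 4.51 to 12.5 elsewhere. Lonrf2, Rhobtb1, Mdga1, the muscle fusion gene Mymx, Igsf21, B3gnt3 and Tgfbi were the other 7 of the 10 leading genes, with log2 differences from 2.25 to 3.03.

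On the low side of 1d2 stood Gab1, a docking protein downstream of receptor tyrosine kinases, at chr8:80764431-80880519. It was counted at 36.4 and 30.5 CPM in 1d2, 70.4 and 57.1 in 3xU, 266 and 203 in 2c4d, and 580 and 554 in 1d1, with 392 to 464 CPM in the parental libraries. The log2 difference in 1d2 was -2.61 ± 0.12 (adjusted p = 2.99e-06). The libraries of 3xU and 1d2 all lay below those of 1d1 and 2c4d. Lrp2, the endocytic receptor megalin, stood at 23.4 and 29.0 CPM in 1d2 and 108 to 181 in the other lines. The early growth response gene Egr1 was lowest in 1d2, at 1.99 and 5.49 CPM, against 11.6 and 31.1 in 2c4d, 21.2 and 33.1 in 3xU, and 78.8 and 95.3 in 1d1, a log2 difference of -3.34 ± 0.27 (adjusted p = 3.18e-05). Egr1 was also lower in parental_2, at 5.66 and 11.0 CPM, than in parental_1, at 19.2 and 32.8 (log2 difference -1.66).

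In 2c4d, Thbs1, Tfpi, Tagln and Krt18 stood above all other knockout libraries. Thbs1, the matrix glycoprotein thrombospondin, stood at 87.0 and 93.0 CPM in 2c4d and 12.4 to 24.5 in the other lines, a log2 difference of 2.41 ± 0.11 (adjusted p = 1.65e-06). The parental libraries held 2.96 to 4.67 CPM, below all 8 knockout libraries. Tfpi, an inhibitor of the coagulation pathway, stood at 118 and 123 CPM in 2c4d and 13.8 to 43.5 in the other lines, but at 81.2 to 98.5 in the parental libraries. Tagln, an actin-binding protein of smooth muscle, stood at 46.5 and 40.8 CPM in 2c4d and 5.84 to 20.9 elsewhere.

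The low genes of 2c4d included Cobl, an actin nucleator, and Satb1, a chromatin organiser. Cobl stood at 26.2 and 21.4 CPM in 2c4d, 127 and 118 in 1d1, 122 and 120 in 3xU, and 178 and 178 in 1d2, with 353 to 463 in the parental libraries. All 8 knockout libraries were thus below the parental ones, and 2c4d was the lowest (log2 difference -2.53 ± 0.12, adjusted p = 1.65e-06). Satb1 stood at 3.47 and 3.72 CPM in 2c4d, 15.6 to 20.9 in the other lines and 24.5 to 27.1 in the parental libraries. Neat1, Zfhx2, Fut9, Mir291a, Mir124a-1hg, Soga3, Islr2 and Ptprd made up the other low genes. Of the leading genes of 2c4d, Prss23, Mir291a and Mir124a-1hg lost their call with the parental set difference subtracted.

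**Figure D2:**
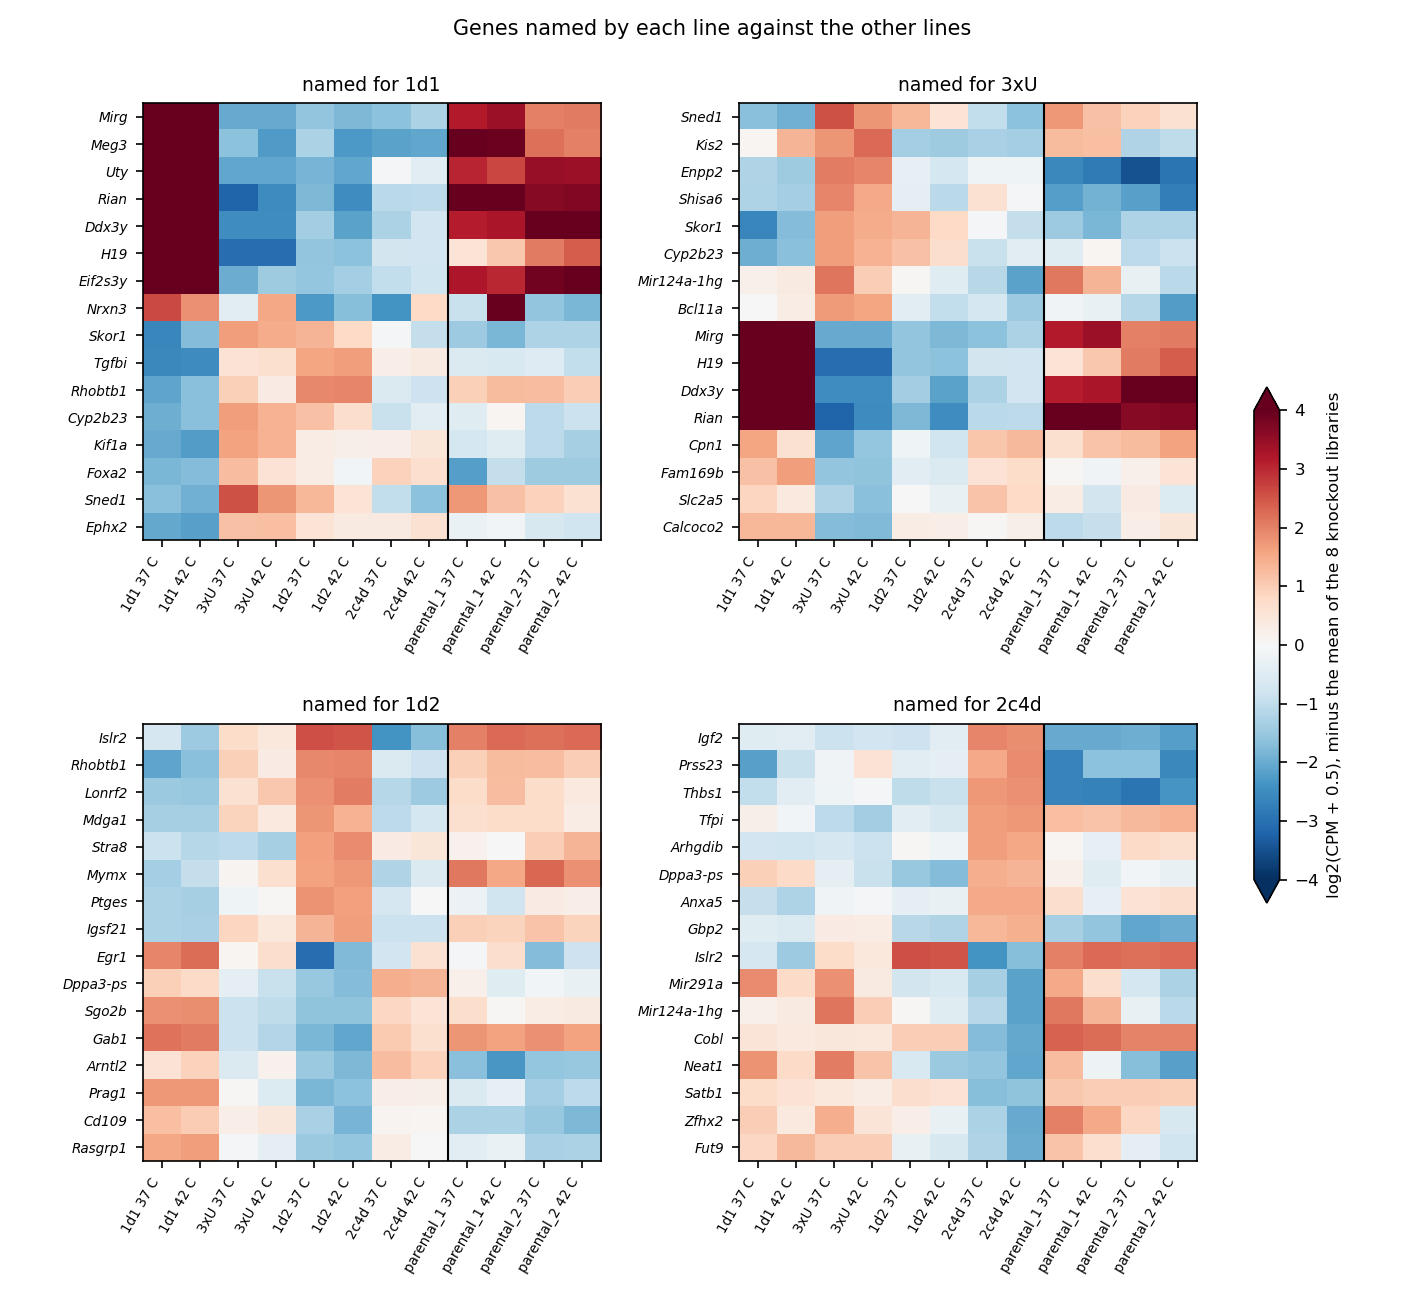
Heat map of the 8 highest and 8 lowest leading genes of each line in the 8 knockout libraries and, right of the black line, the 4 parental libraries; colour gives log2(CPM + 0.5) minus its mean over the 8 knockout libraries, on a scale from -4 to 4 with values beyond it drawn in the end colours. In most rows the 37 °C and 42 °C columns of a line are close in colour, and Mirg, H19, Ddx3y and Rian lead the lists of both 1d1 (high) and 3xU (low).

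The pairs of lines within a set share no library, so their calls could be set side by side, although they come from 1 fit with a common temperature term. The pattern was noticed in these data. Of the 4874 genes called between 1d1 and 3xU and the 2771 called between 1d2 and 2c4d, 1518 were called in both, 31.1% of the first and 54.8% of the second. Of those 1518, 1257 (82.8%) had 1d1 and 2c4d on 1 side and 3xU and 1d2 on the other, 668 higher in 1d1 and 2c4d and 589 higher in 3xU and 1d2. The remaining genes were 83 higher in 1d1 and 1d2 and 178 higher in 3xU and 2c4d. Across 11345 genes the log2 differences of the 2 pairs had a Pearson r of -0.38, as a description over genes, which are not independent. Without the genes of chromosome 8 the share was 80.4% of 1295, with 455 higher in 1d1 and 2c4d and 586 higher in 3xU and 1d2. Without chromosomes 1, 3, 8, 11 and 14 it was 80.9% of 889, with 278 and 441, so the larger direction turned.

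Several named genes show this grouping. Dppa3, also called Stella, which protects DNA methylation in the early embryo, stood at 18.3 and 18.2 CPM in 1d1 and 26.7 and 19.4 in 2c4d, against 2.82 and 3.34 in 3xU and 3.47 and 2.66 in 1d2, with 5.98 to 10.9 in the parental libraries. Dnmt3l, the cofactor of de novo DNA methyltransferases, stood at 212 and 252 CPM in 1d1 and 200 and 202 in 2c4d, against 57.3 and 58.6 in 3xU and 50.0 and 52.2 in 1d2, with 90.3 to 149 in the parental libraries. For both, 1d1 and 2c4d lay above the parental cultures and 3xU and 1d2 below. Gpa33, an intestinal surface antigen, went the other way, at 31.5 and 28.1 CPM in 3xU and 53.5 and 42.3 in 1d2 against 4.75 to 7.48 in 1d1 and 2c4d. Slfn9, a Schlafen gene, stood at 8.33 and 13.4 CPM in 1d1 and 10.8 and 7.87 in 2c4d, against 0.628 to 1.32 in 3xU and 1d2 and 33.5 to 58.9 in the parental libraries.

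Naive pluripotency genes differed among the lines without exception in the list of 14, all of which passed the test of any line difference. In 1d2, 9 were higher and 3 lower, with a median log2 difference of 0.87, against -0.02 over all genes. In 3xU, 2 were higher and 8 lower (median -0.38), in 1d1 6 and 4 (median -0.01), and in 2c4d 2 and 5 (median -0.13). Tbx3, a T-box factor of naive cells, stood at 153 and 110 CPM in 1d2, 63.0 and 49.9 in 1d1, 65.9 and 44.2 in 3xU, and 35.9 and 27.7 in 2c4d. Klf2, a Krüppel-like factor, stood instead at 159 and 142 CPM in 1d1, 61.0 and 43.1 in 3xU, 61.6 and 56.6 in 2c4d, and 38.4 and 33.4 in 1d2. Zfp42, also called Rex1, stood at 127 and 128 CPM in 3xU, against 239 to 471 in the other lines and 347 to 585 in the parental libraries (log2 difference -1.29). Nanog stood at 744 and 478 CPM in 1d2, 452 and 309 in 2c4d, 303 and 265 in 1d1, and 235 and 166 in 3xU.

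Core pluripotency genes differed in some line for 6 of 9 (66.7%), near the 59.9% of all genes. Pou5f1, which encodes OCT4, stood at 577 and 518 CPM in 1d1, 702 and 782 in 3xU, 879 and 864 in 1d2, and 536 and 630 in 2c4d, with 763 to 1166 in the parental libraries, so the labelled cell type was borne by its defining gene in every library. Tdgf1, the NODAL co-receptor, stood at 286 and 179 CPM in 1d1 and 792 and 519 in 1d2.

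Formative and DNA methylation genes were higher in 3xU for 8 of 13 and lower for 2, with a median log2 difference of 0.56. The list joins genes that come on as cells leave the naive state with genes of DNA methylation and its removal. Tet1 was among the 8 higher, and Dnmt3l and Tet2 were the 2 lower. Of the 8, Dnmt3a, Sox4 and Tet1 were not called between 3xU and 1d1, the line of the same library set (adjusted p = 0.704, 0.322 and 0.549 by edgeR's quasi-likelihood test). Lef1, a transcription factor of WNT signalling, stood at 41.8 and 27.1 CPM in 3xU, 17.3 and 12.2 in 1d2, 11.0 and 9.26 in 2c4d, and 3.79 and 3.59 in 1d1. Pou3f1, which encodes OCT6, stood at 59.8 and 38.0 CPM in 3xU, 21.2 and 16.5 in 2c4d, 10.5 and 7.55 in 1d2, and 7.17 and 10.7 in 1d1. Both genes were highest in both 3xU libraries. Otx2, a homeobox factor of the epiblast, was highest in 2c4d instead, at 44.1 and 47.1 CPM against 8.23 to 27.7 in the others. Tet1 and Tet2, which oxidise methylated DNA, were lowest in 2c4d: Tet2 stood at 195 and 141 CPM there and at 646 and 535 in 1d1, and Tet1 at 510 and 341 in 2c4d against 659 to 1486 in the other lines. Tet1 was also lower in parental_2, at 1048 and 793 CPM, than in parental_1, at 2166 and 1481.

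**Figure D3:**
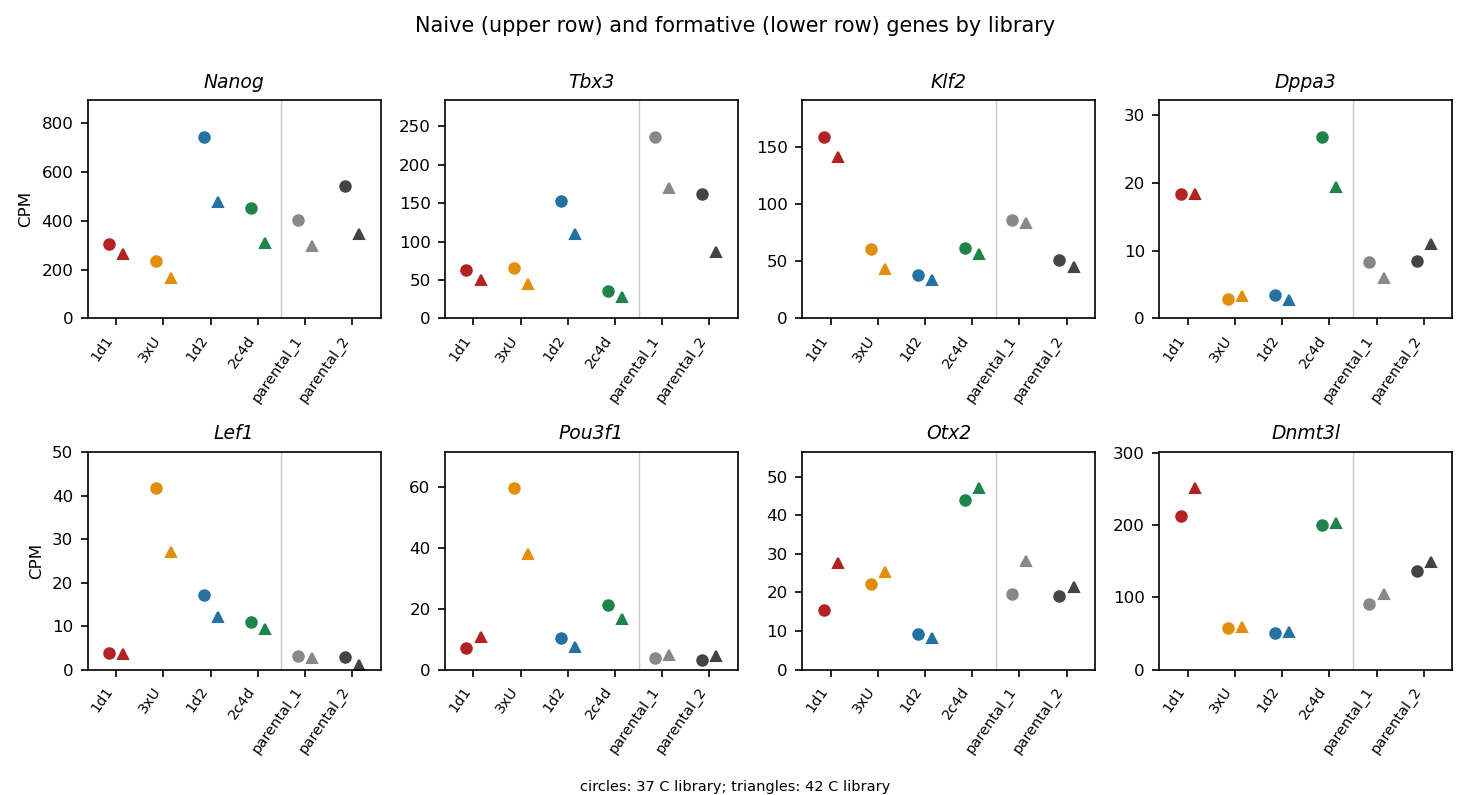
Levels of 4 naive genes (upper row) and 4 formative or DNA methylation genes (lower row) in each library, in TMM-scaled CPM on linear axes that start at 0, with circles for 37 °C and triangles for 42 °C; columns are the 4 knockout lines and, right of the grey line, the 2 parental cultures. Tbx3 is highest of the 4 lines in 1d2, Klf2 in 1d1, Lef1 and Pou3f1 in 3xU and Otx2 in 2c4d, while Dppa3 and Dnmt3l are high in 1d1 and 2c4d and low in 3xU and 1d2.

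Markers of other cell types differed too. The primitive endoderm list was higher in 1d1 for 7 of 13 genes tested and lower for 1, with a median of 0.82. The laminin gene Lama1 stood at 172 and 158 CPM in 1d1 and 37.0 to 48.5 in the other lines, a log2 difference of 2.02, with 148 to 249 in the parental libraries. The defining factors Gata4, Gata6 and Sox17 were at most 1.23 CPM in every knockout library, against 1.50 to 6.16 in the parental libraries. Of the other defining markers, Sox7 reached 6.17 CPM, in 1d2, Dab2 8.21 CPM, in 2c4d, and Pdgfra 2.97 CPM, in 1d1. Their parental levels were 7.15 to 16.4, 9.43 to 14.4 and 8.14 to 12.6 CPM. The summed level of all 18 listed genes was 1605 and 1510 CPM in 1d1, 1115 to 1218 in the other lines and 1547 to 1728 in the parental libraries, so 1d1 was the closest to the parental level. Of the sum in 1d1, Sparc made 695 and 671 CPM and Lamc1 476 and 458 CPM. Their parental levels were 368 to 634 CPM for Sparc and 550 to 733 CPM for Lamc1. In 1d1, Sparc thus lay above the parental range and Lamc1 below it, so the closeness holds for the sum and not for each gene. The part of such cells in the results for 1d1 was not tested.

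The trophoblast list was higher in 2c4d for 6 of 9 genes and lower for 1, with a median of 1.10, and lower in 1d2 for 5 (median -0.93). The keratin genes Krt8 and Krt18 stood at 40.6 and 33.8 CPM and at 111 and 115 CPM in 2c4d, against 7.89 to 16.6 and 21.3 to 33.7 in the other lines. The summed level of the 10 listed genes was 210 and 224 CPM in 2c4d and 75.7 to 122 in the other lines. The defining factor Elf5 was at 0 counts in 6 of the 8 knockout libraries, with 2 counts in the 42 °C library of 2c4d, and Cdx2 was at most 1.51 CPM. Gata3, another of its factors, was highest in 1d1, at 5.69 and 6.35 CPM, against 1.58 and 2.08 in 2c4d, 0.941 and 1.21 in 3xU, and 0.433 and 0.686 in 1d2. Of 5 fibroblast genes tested, 3 were higher in 2c4d. Smooth muscle actin, Acta2, stood at 4.60 and 3.55 CPM there and 0.173 to 0.708 in the other lines, the collagen gene Col1a1 at 3.54 and 4.58 against 0.693 to 2.00, and Col3a1 at 2.64 and 2.25 against 0.102 to 1.46. Col1a2 and Postn were at 0 counts in 4 of 8 libraries each and at most 4 counts in 2c4d, and the summed list stood at 20.2 and 20.9 CPM in 2c4d and 8.76 to 15.5 in the other lines. The part of such cells in the results for 2c4d was not tested.

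Pax6, a neural transcription factor gene, was also highest in 2c4d, at 35.6 and 31.8 CPM, then 26.7 and 21.4 in 1d1, 15.2 and 11.8 in 3xU, and 5.89 and 4.37 in 1d2. The other defining neuroectoderm genes went otherwise. Sox1 was lowest in 2c4d, at 1.73 and 1.64 CPM against 3.14 to 5.64 in the other lines. Nes was highest in 3xU, at 81.2 and 75.6 CPM, and stood at 51.0 and 45.3 in 2c4d. All 6 neuroectoderm genes tested differed in some line, and 4 were lower in 1d2 with none higher. Mesendoderm markers stayed near the limit of counting, with a summed level of 7.89 to 16.2 CPM over the 8 libraries, and 2 of 4 tested passed.

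Germline genes, such as those of meiosis and of the piRNA pathway, were higher in 1d2 for 10 of 14 and lower for none (median 0.92). In 3xU, 6 were lower and none higher. Mael, a piRNA pathway gene, stood at 4.85 and 7.03 CPM in 1d2 and 0.829 to 2.13 in the other lines, below the 12.5 to 19.3 of the parental libraries. Taf7l, a germline relative of a TFIID subunit, stood at 5.20 and 6.17 CPM in 1d2 and 0.949 to 2.34 in the other lines. Rpl10l, a testis ribosomal protein gene, was lowest in 2c4d, at 4.07 and 6.14 CPM against 7.32 to 18.8. Tex14, a gene of germ cell bridges, went otherwise, at 26.4 and 24.7 CPM in 1d1, 18.2 and 18.9 in 2c4d, 11.4 and 15.3 in 1d2, and 7.22 and 5.97 in 3xU. The germline list was also higher in the second library set for 10 of 14 in the knockout lines, and for 3 in the parental cultures.

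The genes of glycolysis and the hypoxia response were lower in 1d1 for 16 of 19 and higher for 1, with a median of -0.59. They were higher in 1d2 for 11 and lower for none (median 0.42). Tpi1, the glycolytic triosephosphate isomerase, stood at 51.8 and 53.5 CPM in 1d1, 125 and 128 in 3xU, 160 and 177 in 1d2, and 126 and 131 in 2c4d, with 81.0 to 90.6 in the parental libraries. Vegfa, the vascular growth factor induced by hypoxia, stood at 10.1 and 12.3 CPM in 1d1, 33.7 and 29.5 in 3xU, 56.7 and 42.5 in 1d2, and 26.4 and 21.5 in 2c4d. Both were lowest in 1d1 and highest in 1d2. Against the parental cultures, the 2 lines thus lay on opposite sides for Tpi1.

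The p53 target genes split 1d1 and 3xU. In 3xU, 12 of 19 were higher and none lower (median 0.43). In 1d1, 10 were lower and none higher (median -0.30). Perp, a membrane protein of p53-dependent apoptosis, stood at 122 and 141 CPM in 3xU, 69.6 to 77.7 in 1d2 and 2c4d, and 21.6 and 36.1 in 1d1, with 29.1 to 38.6 in the parental libraries. Pmaip1, which encodes the death factor NOXA, stood at 216 and 299 CPM in 3xU and 50.1 and 117 in 1d1. These lines belong to 1 library set, and between them 11 of the 19 genes differed, all higher in 3xU.

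Immediate early genes were lower in 1d2 for 7 of 14 and higher for none (median -0.62), and higher in 1d1 for 6 and lower for 2, and in 3xU higher for 6 and lower for 1. They were lower in the second library set for 9 of 14 in the knockout lines and for 1 in the parental cultures. FGF and ERK feedback genes followed in part. Dusp4, an ERK phosphatase, stood at 5.37 and 6.09 CPM in 1d2, 10.9 and 10.4 in 3xU, 20.1 and 25.9 in 1d1, and 24.7 and 31.4 in 2c4d. Spry2, a Sprouty inhibitor of receptor signalling, was highest in 3xU instead, at 117 and 115 CPM against 45.7 to 71.6 in the other lines.

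The m6A machinery was compared as well. Of the 8 tested members of the writer complex, 5 (62.5%) differed in some line, near the 59.9% of all genes. Wtap stood at 186 and 177 CPM in 1d1 and 111 to 130 in the other lines, a log2 difference of 0.55, with 68.2 to 91.3 in the parental libraries, below all knockout lines. Zc3h13 was highest in 3xU at 246 and 217 CPM and lowest in 2c4d at 137 and 96.3, with 132 and 137 in 1d1 and 174 and 170 in 1d2. Mettl14 stood at 46.6 and 38.7 CPM in 1d1, 30.8 and 27.9 in 3xU, 34.7 and 32.2 in 1d2, and 42.9 and 42.0 in 2c4d. Mettl14 did not pass without either library of 3xU (adjusted p = 0.0776 and 0.0833). Rbm15 was called as well but not without a library of 3xU or of 1d2 (adjusted p from 0.0534 to 0.199), while Virma, Rbm15b and Cbll1 were not (adjusted p = 0.734, 0.180 and 0.0699). Of 11 readers and erasers 8 (72.7%) differed, with Fto at 107 and 90.3 CPM in 1d1 and 45.0 to 57.6 in the other lines, a log2 difference of 0.95, and 50.8 to 67.5 in the parental libraries.

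In each line the median of some chromosomes was shifted. Over 11036 genes on chromosomes 1 to 19 and X with a mean of at least 2 on the log2 CPM scale, the median log2 difference of a chromosome was set beside that of all genes, and chromosomes more than 0.15 from it are given. In 1d1, chromosome 8 had a median of 0.62, with 434 of its 590 genes called higher (73.6%) and 19 lower. Chromosome 1 had a median of -0.56, with 434 of 640 called lower (67.8%) and 25 higher, and chromosome 14 also of -0.56, with 257 of 391 lower and 14 higher. Chromosome 11 stood at 0.38, 16 at 0.26, 7 at 0.24, 9 at 0.16 and 19 at -0.15.

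In 1d1 the largest shifts were even along the chromosome. Split by position into 3 blocks of about equal gene number, chromosome 8 had medians of 0.63, 0.63 and 0.61 in 1d1, chromosome 1 of -0.57, -0.57 and -0.51, and chromosome 14 of -0.58, -0.58 and -0.51. Smaller shifts were less even, as on chromosome 17 in 2c4d, at -0.26, -0.27 and -0.09. Chromosome 4 in 2c4d, with no shift as a whole past 0.15, stood at 0.09, 0.04 and -0.21. At 37 °C alone the median of chromosome 8 in 1d1 was 0.62 and at 42 °C alone 0.58. Fto, Klf2, Gab1, Zfp42 and Dusp4, described above, lie on chromosome 8. DNA was not measured here, so the number of copies of a chromosome was not tested.

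Set against the mean of the other 3 lines, the shifts of 3xU, 1d2 and 2c4d were smaller than the largest of 1d1. In 3xU chromosome 8 stood at -0.43, 3 at -0.24 and 11 at -0.19, with 14 at 0.29 and 1 at 0.25. In 1d2 chromosome 8 stood at -0.38 and 3 at -0.17, with 14 at 0.33 and 12 at 0.16. In 2c4d chromosome 3 stood at 0.31, 8 at 0.21 and 1 at 0.16, with 12 at -0.25, 17 at -0.22 and 13 at -0.20. Because each line is set against the other 3, a shift in 1 line gives the opposite sign, at lower size, in the others. Against the parental culture of its own set, chromosome 8 stood at 0.30 in 1d1, -0.48 in 3xU, -0.54 in 1d2 and -0.14 in 2c4d, and between the parental cultures at 0.12, so 1d1 was above and the other 3 lines below. Chromosomes 1 and 14 stood at -0.45 and -0.43 in 1d1 against parental_1.

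**Figure D4:**
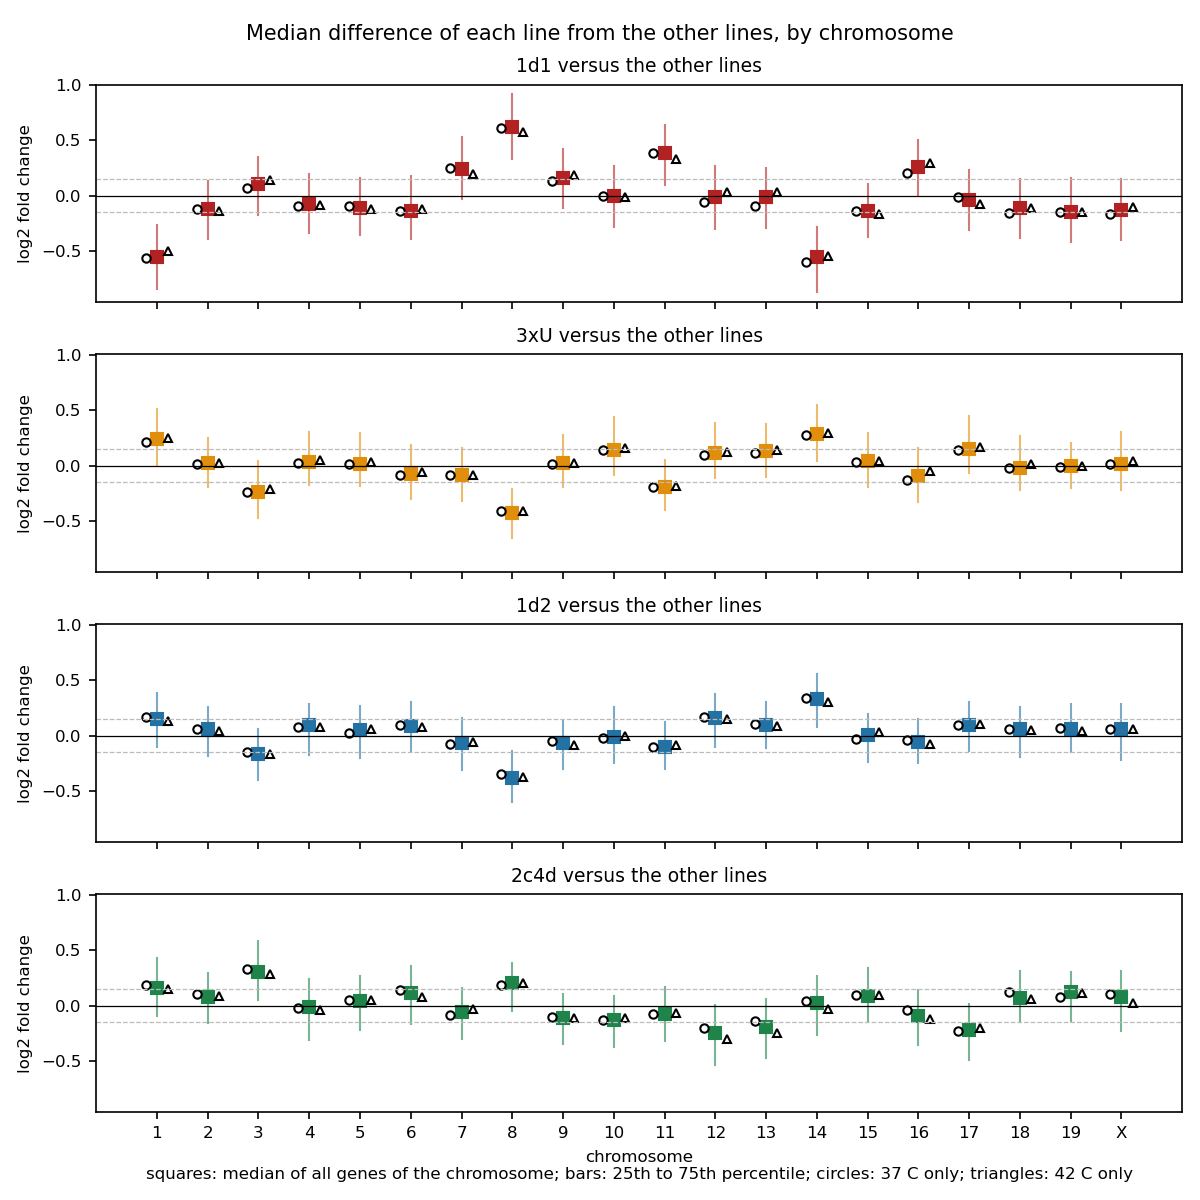
Log2 difference of each line from the mean of the other 3 lines for the genes of each chromosome, with 1 panel per line: squares are medians, bars run from the 25th to the 75th percentile of genes, circles and triangles are medians from the 37 °C or 42 °C libraries alone, and dashed lines stand at -0.15 and 0.15. Chromosome 8 reaches 0.62 in 1d1 and falls to -0.43 in 3xU and -0.38 in 1d2, and chromosomes 1 and 14 are the lowest in 1d1, both at -0.56.

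The library sets were compared last, with the parental cultures as a measure of the same difference in cells that keep Mettl3. Between 1d2 with 2c4d and 1d1 with 3xU, 6180 genes (40.9%) differed, 2985 higher (19.8%) and 3195 lower (21.2%) in the second set. Without the 37 °C library of 3xU the count was 3943, and without that of 1d2 it was 3963. Between parental_2 and parental_1, 2496 of 15635 genes (16.0%) differed, 1306 (8.35%) higher and 1190 (7.61%) lower, falling to 888 without the 42 °C library of parental_1 and to 725 and 76 without the 37 °C or 42 °C library of parental_2. Of 5263 genes called between sets in the knockout lines at a mean of at least 2, 4611 (87.6%) had the same sign in the parental cultures. Of the 1685 called in both, 1651 had the same sign, and r across 11345 genes was 0.69.

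Nuclear and small RNAs were among the genes that marked the sets. Neat1, the RNA of paraspeckles, stood at 143 and 68.8 CPM in 1d1 and 170 and 90.3 in 3xU, against 26.5 and 14.2 in 1d2 and 13.2 and 9.26 in 2c4d. In parental_1 it stood at 95.4 and 35.2 CPM and in parental_2 at 12.1 and 8.55, so the parental cultures split as the lines did (log2 differences -2.93 and -2.57). Of 9 nuclear long noncoding RNAs, 7 were lower in the second set in the knockout lines, with a median of -1.45, and 6 in the parental cultures, with a median of -1.63. Of 8 microRNA host transcripts and hairpins the numbers were 7 (median -2.23) and 6 (median -1.96). The hairpins Mir290a, Mir291a and Mir294 lie close together on chromosome 7 and Mir92-1 lies within the host transcript Mir17hg, so these counts are not independent. Of 90 small nucleolar and Cajal RNAs, 42 were lower and 6 higher (median -0.82) against 8 lower and none higher (median -1.03).

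Single libraries carried the small nucleolar and Cajal RNAs. Summed over the 147 listed genes, they stood at 1960 and 944 CPM in 1d1, 1707 and 1303 in 3xU, 905 and 1109 in 1d2, 896 and 1024 in 2c4d, 909 and 2830 in parental_1 and 879 and 1254 in parental_2. The parental cultures were close at 37 °C and apart at 42 °C, and the 42 °C library of 1d1 lay below those of 1d2 and 2c4d.

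Zfhx3 and Stra8 differed between the sets by more in the knockout lines than in the parental cultures. Zfhx3, a homeobox factor, stood at 60.6 and 51.3 CPM in 1d1, 56.8 and 44.6 in 3xU, and 5.71 to 9.12 in 1d2 and 2c4d, a log2 difference of -2.79, against -1.53 between the parental cultures. Stra8 had 2.27 against 1.11. Tested directly over all 15635 genes, 146 (0.934%) had a set difference in the knockout lines that differed from that in the parental cultures, 82 (0.524%) upward and 64 (0.409%) downward. That count fell to 4 without the 42 °C library of parental_2 and rose to 319 without the 37 °C library of 1d1. It lay between 11 and 92 without any of 9 other libraries and at 210 without the 42 °C library of 1d1.

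**Figure D5:**
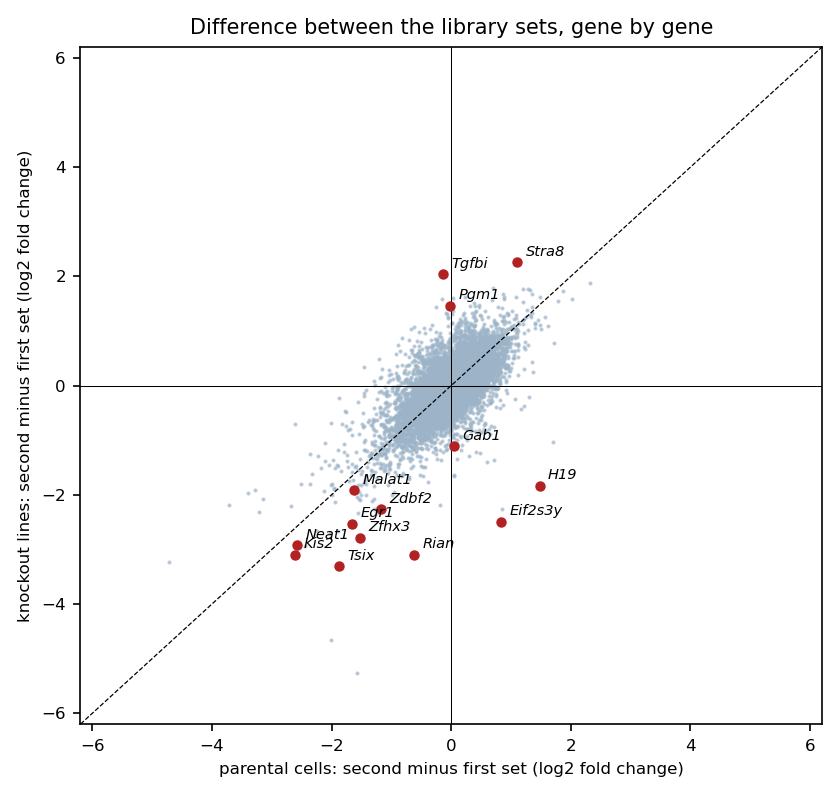
Log2 difference between library sets, second minus first, in the knockout lines (vertical axis) against the same difference between parental_2 and parental_1 (horizontal axis), with 1 point for each of 11345 genes, 14 genes marked by name and the line of equal values dashed. The cloud of points slopes upward (r of 0.69 across genes), and Tgfbi (2.04 against -0.13) and Gab1 (-1.11 against 0.05) lie off it.

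Heat shock was a covariate in these comparisons, and the 42 °C libraries of all 4 lines carried its mark. Hspa1a, an inducible HSP70 gene, was 237-fold higher at 42 °C than at 37 °C in 1d1, 217-fold in 3xU, 157-fold in 1d2 and 174-fold in 2c4d, each from 1 library against 1 and so with no test within a line. The 37 °C counts of Hspa1a were 7, 9, 18 and 13 in that order of lines, so the sizes are rough. Reads of Hspa1a and its near-identical neighbour Hspa1b may be divided between the 2. Hspa1b gave another order, at 125-fold in 1d1, 66.5-fold in 3xU, 86.3-fold in 1d2 and 106-fold in 2c4d. Hsph1, a co-chaperone of HSP70, was 4.09-fold higher in 3xU, 3.45-fold in 1d1, 2.93-fold in 1d2 and 2.24-fold in 2c4d. Fos was 11.7-fold higher in 1d1 and 3.40-fold in 1d2. Of 12 heat shock genes, 10 differed in level in some line, with both temperatures in the fit. Bag3, an HSP70 co-chaperone, stood at 78.0 and 104 CPM in 1d1 and at 30.6 to 41.3 at 37 °C and 55.2 to 75.9 at 42 °C in the other lines. Dnajb1, another co-chaperone, stood at 81.4 and 365 CPM in 1d1, 34.1 and 201 in 3xU, 40.3 and 197 in 1d2, and 68.0 and 279 in 2c4d. The mitochondrial co-chaperonin gene Hspe1 was lowest in 1d1 at 82.0 and 123 CPM, and the small heat shock gene Hspb1 highest in 1d2 at 31.8 and 57.8. Whether the response to heat differs among the lines was not tested, since a line has 1 library per temperature.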

How the data were processed

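Total RNA was depleted of ribosomal RNA with Ribozero and made into libraries with ScriptSeq v2, per the labels' protocols. The deposited table holds whole-number counts of reads per Ensembl gene, made by the authors with Bowtie on mm10, per the submitters' processing notes; the annotation, the counting tool and the use of strand are not given in the sources used here. Of 39017 genes, 37607 matched a symbol.

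From the counts, 12 columns were read: 8 knockout and 4 parental. Genes were filtered with filterByExpr by line and scaled by TMM. They were fitted with edgeR 4.0.16 (R 4.3.3) by quasi-likelihood, with line and temperature as terms, over the 8 knockout libraries (15092 genes, 3 residual degrees of freedom), or over all 12 for contrasts with parental cells (15635 genes, 5 residual degrees of freedom). P-values were adjusted by Benjamini-Hochberg over all genes tested. Tested on simulated counts for 1d1 against the other lines over 14731 genes, the fit recovered 95 of 100 genes changed 2-fold and 100 of 100 changed 4-fold, with 19 false calls. The simulated share of changed genes was far below the 43.1% called for 1d1 in the data. The false calls there therefore do not measure those among the calls reported. Count ratios have exact 95% conditional intervals for counting error only.

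Alternatives were DESeq2 1.42.0, RLE scaling, no filter on low counts, no temperature term, all 12 libraries, leaving out each library and leaving out mitochondrial, histone and small nucleolar RNA genes; subtracting the parental set difference was added after the data were seen. Genes are named by a rule: the 10 highest and 10 lowest of each line, with an adjusted p under 0.05, an average level of 2 or more on the log2 CPM scale and both libraries beyond all 6 others; 5 in each direction for pairs within a set and for the sets; the writer complex; and up to 4 per list by the smallest any-line p, not all of which are described. A gene that the rule names is not reported here. A few further list members and genes of the crossing pattern were chosen after their values were seen. The comparison of these lines and the gene lists were chosen with earlier results of these data known. Sequences are from RefSeq (GRCm38.p6).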

Additional observations from a re-analysis of the deposited data

Results flagged for a closer look

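The difference between library sets was not the same in knockout and parental cells for 146 genes, by a test of that difference over 15635 genes (edgeR's quasi-likelihood test, adjusted p under 0.05). Each set holds 2 knockout lines and 1 parental culture. The number of such genes depended strongly on single libraries, as given above. Of the genes named above, 17 are among them, and each is given by the log2 size of the difference, second minus first set in the knockout lines minus the same in the parental cultures. Most genes were named for their values in these same libraries, so the 17 do not show how common such differences are.

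Upward differences were 2.17 for Tgfbi (2.04 in the knockout lines, -0.13 in the parental cultures, adjusted p = 0.00212), 1.52 for Ephx2 (adjusted p = 0.00551), 1.48 for Pgm1 (adjusted p = 0.00251) and 1.34 for Kif1a (adjusted p = 0.0210). For these 4 genes 1d1 had the lowest level of the 4 lines. They were 1.38 for Igf2 (adjusted p = 0.0435) and 0.97 for Tfpi (adjusted p = 0.0195), both highest in 2c4d, and 1.16 for Stra8 (adjusted p = 0.0398), highest in 1d2.

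Downward differences were -3.33 for Eif2s3y (-2.49 in the knockout lines, 0.84 in the parental cultures, adjusted p = 0.00251), -3.31 for H19 (-1.83 and 1.48, adjusted p = 0.0195) and -2.48 for Rian (-3.10 and -0.63, adjusted p = 0.0153), all 3 highest in 1d1. They were -1.72 for Pld1 (adjusted p = 0.0298), -1.44 for Tsix (adjusted p = 0.0256) and -1.26 for Zfhx3 (adjusted p = 0.0195). Gab1 had -1.15 (-1.11 and 0.05, adjusted p = 0.00366), with the parental cultures alike and 3xU and 1d2 low. Satb1 had -1.01 (adjusted p = 0.0160) and Soga3 -0.93 (adjusted p = 0.0407), both lowest in 2c4d. Calcoco2 had -0.93 (0.42 and 1.35, adjusted p = 0.0153), lowest in 3xU.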

How the results depend on the processing

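Of 206 counts of called genes under alternatives, 156 stayed within 1.5 times the count reported and 50 did not. Without the temperature term the counts were 2706 for 3xU, 2306 for 1d2, 2702 for 2c4d, 3789 for 1d1 minus 2c4d, 1560 for 3xU minus 1d2, 3496 for 3xU minus 2c4d, 1491 for 1d2 minus 2c4d, 922 between the parental cultures, and 23 for the knockout set difference against the parental one. That last count was 242 with DESeq2 and 425 with no filter. With the parental set difference subtracted, the counts were 4126 for 1d1, 911 for 3xU, 1566 for 1d2 and 1149 for 2c4d. The cause was not tested. No paired analysis was possible because the labels give the knockout libraries no replicate number that lines share, and temperature, the only link between lines, was already a term of the fit.

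Leaving out each library in turn gave 6761 to 9295 genes for any line, 4397 to 6851 for 1d1, 957 to 4976 for 3xU, 824 to 4769 for 1d2, 2437 to 5069 for 2c4d, 2181 to 5389 for 1d1 minus 3xU, 3286 to 7183 for 1d1 minus 1d2, 4358 to 4927 for 1d1 minus 2c4d, 676 to 4396 for 3xU minus 1d2, 2027 to 6258 for 3xU minus 2c4d, 779 to 3464 for 1d2 minus 2c4d, 3943 to 6030 between the sets, 76 to 3276 between the parental cultures and 4 to 319 for the difference of set differences. A line left with 1 library is assumed to vary like the others. Of 3355 values of 235 results on named genes, 3311 stayed on their side of the threshold, 38 lost the call and 6 gained it, and no signed difference reversed. Of the losses, 14 came without the temperature term, with Bag3, Dnajb1 and Hspb1 among them, and 8 with the parental set difference subtracted. Values near 0 CPM rest on few counts, so ratios against them are known only within the intervals given.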

Other observations

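Further gene groups are set beside the 59.9% of all genes that differed in some line. Of 52 replication-dependent histone genes tested, 19 were higher and 2 lower in 1d2, with a median log2 difference of 0.33, and 15 were lower and 3 higher in 1d1 (median -0.22). The same list was higher for 22 and lower for 7 in the second library set in the knockout lines, and for 8 and 1 in the parental cultures. Of 333 genes named Zfp, most of which encode zinc finger proteins, 93 were higher and 18 lower in 3xU (median 0.17), against 16.6% and 12.6% of all genes. Atf4, the transcription factor of the integrated stress response, stood at 328 and 403 CPM in 3xU and 353 and 455 in 1d2, against 197 and 207 in 1d1 and 220 and 255 in 2c4d.

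Of 8 interferon response genes tested, 7 differed in some line, and 5 were higher in 1d1. Ifitm3, an antiviral membrane protein, stood at 80.8 and 62.2 CPM in 1d1, 56.3 and 40.6 in 3xU, 40.4 and 44.7 in 1d2, and 19.1 and 20.3 in 2c4d. Of 10 Nodal and BMP response genes, 8 differed. Id1, a target of BMP signalling, stood at 40.3 and 52.2 CPM in 1d1, 25.4 and 42.6 in 3xU, 31.0 and 42.3 in 2c4d, and 14.6 and 23.3 in 1d2, the lowest line at each temperature. Skil, a repressor of TGF-β signalling, stood at 780 and 840 CPM in 3xU and 247 to 521 in the other lines. Among microRNA processing genes, Dicer1 stood at 344 and 366 CPM in 1d1 against 153 to 233 in the other lines. Tnrc6c and Tnrc6a encode partners of the Argonaute proteins. Tnrc6c stood at 173 and 140 CPM in 1d1, 111 and 94.2 in 3xU, and 54.6 to 70.0 in 1d2 and 2c4d. The parental cultures split likewise, with Tnrc6c at 189 and 159 CPM in parental_1 and 118 and 97.8 in parental_2. Tnrc6a stood at 168 and 172 CPM in 1d1, 158 and 143 in 3xU, and 78.3 to 101 in 1d2 and 2c4d. Between 1d1 and 3xU, Tnrc6a was not called (adjusted p = 0.370 by edgeR's quasi-likelihood test). Some groups lay near the share of all genes: 10 of 15 integrated stress genes (66.7%) differed in some line, 8 of 12 microRNA processing genes (66.7%), 9 of 14 mitochondrially encoded genes (64.3%) and 50 of 84 ribosomal protein genes (59.5%). Of 5 Hox genes tested 1 differed.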
